A study of Mus musculus with 2 samples.

Results

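Open chromatin peaks that lay close together in day 5 cardiac progenitor cells (CPCs) were examined as groups. Distinct peaks were sorted along each chromosome, neighbours were joined where at most 10 kb separated the end of one peak from the start of the next, and joined groups with at least 5 peaks were kept. This gave 73 clusters, which held 408 of the 26232 distinct peaks, or 1.56%. The members were thus selected on the measured positions of the peaks, so the number of peaks, the gaps between them and their nearness to other peaks are described here and support nothing.

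The peaks came from ATAC-seq, in which the transposase Tn5 inserts sequencing adapters into DNA that is not covered by nucleosomes. The series as used here holds 2 replicate samples of 1 group, CPCs obtained by directed differentiation of E14 Tg(Nkx2-5-EmGFP) mouse embryonic stem cells, a line in which a green fluorescent protein reports Nkx2-5, a homeobox factor of early heart cells. The labels give the strain as C57BL/6, passages 16-20 and no treatment, and per the study's methods the replicates were independent differentiations of that reporter line. Both replicates share 1 list of peaks on mm9 with no height, no p-value and no value of a replicate, so there was no comparison between conditions, the depth was unknown and no replicate error could be given.

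The labelled cell type was checked against marker genes. Of 10 cardiac progenitor genes 9 were assigned at least 1 peak and 8 had a peak within 1 kb of the start, among them Isl1, Nkx2-5, Tbx5, Tbx20 and Mef2c, while no peak was assigned to Hand2. Of 4 blood and endothelial genes 3 had a peak but none had one at the start, and the same counts held for 4 liver genes. Of 5 pluripotency genes 3 had a peak at the start (Sox2, Zfp42 and Esrrb), as did 2 of 3 neural genes (Sox1 and Pax6) and 1 of 3 skeletal muscle genes (Myod1), so these markers alone did not separate cell types. None of these 29 genes had a peak in a cluster.

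As background, accessible DNA marks promoters, where RNA polymerase starts, and enhancers, where transcription factors bind at a distance from the gene. Promoters of genes used in most cells often lie in CpG islands, stretches rich in the dinucleotide CG that stay free of methylation. Peaks can therefore crowd together in different settings, as several neighbouring genes each with its own promoter or as a row of distal elements around 1 gene. Both kinds of cluster were present in CPCs.

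The central 200 bp of 8 peaks show the sequences of both kinds, from mm9 and read on the plus strand. The first 3 peaks have midpoints within 1 kb of a coding start site, and the other 5 lie away from such sites. The centre of the window was 425 bp from the nearest coding start site for Msx2, 761 bp for Id3 and 171 bp for Hist1h3b. These windows therefore need not hold the start itself. Among the peaks of the gene and position shown, the one whose window held the most kinds of the 16 motifs defined further on was taken, so they illustrate the sequences and do not represent the average peak. Capitals mark matches to those motifs.
Msx2, peak at the start site (chr13:53567918-53568117, plus strand): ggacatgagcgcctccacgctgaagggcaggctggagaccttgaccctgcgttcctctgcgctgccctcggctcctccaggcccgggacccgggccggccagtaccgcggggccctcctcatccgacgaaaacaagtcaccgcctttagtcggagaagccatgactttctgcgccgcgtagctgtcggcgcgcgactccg
Id3, peak at the start site (chr4:135700073-135700272, plus strand): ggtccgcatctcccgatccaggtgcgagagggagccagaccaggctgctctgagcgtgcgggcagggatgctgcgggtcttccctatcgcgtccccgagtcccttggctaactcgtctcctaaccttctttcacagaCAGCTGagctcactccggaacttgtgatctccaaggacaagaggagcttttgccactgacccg
Hist1h3b, peak at the start site (chr13:23844207-23844406, plus strand): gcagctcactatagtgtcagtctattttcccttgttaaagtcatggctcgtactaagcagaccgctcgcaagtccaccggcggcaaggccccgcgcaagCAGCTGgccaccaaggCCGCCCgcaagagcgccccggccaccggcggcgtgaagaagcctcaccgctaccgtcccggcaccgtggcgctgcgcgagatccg
Smad6, intergenic peak (chr9:63780568-63780767, plus strand): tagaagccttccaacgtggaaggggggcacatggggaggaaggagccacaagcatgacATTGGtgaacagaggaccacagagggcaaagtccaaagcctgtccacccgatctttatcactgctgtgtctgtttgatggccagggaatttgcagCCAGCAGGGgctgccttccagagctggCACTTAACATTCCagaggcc
Zfpm1 intron, peak assigned to Trhr2 (chr8:124846782-124846981, plus strand): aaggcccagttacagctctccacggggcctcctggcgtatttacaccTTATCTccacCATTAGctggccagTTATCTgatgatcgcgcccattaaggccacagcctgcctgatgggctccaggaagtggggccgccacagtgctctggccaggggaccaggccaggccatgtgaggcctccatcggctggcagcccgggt
Cacna1a body, peak assigned to Ier2 (chr8:87158118-87158317, plus strand): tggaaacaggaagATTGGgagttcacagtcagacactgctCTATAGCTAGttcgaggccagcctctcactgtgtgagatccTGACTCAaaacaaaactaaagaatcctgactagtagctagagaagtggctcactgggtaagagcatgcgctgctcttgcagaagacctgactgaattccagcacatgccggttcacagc
Elf2, intergenic peak (chr3:51169183-51169382, plus strand): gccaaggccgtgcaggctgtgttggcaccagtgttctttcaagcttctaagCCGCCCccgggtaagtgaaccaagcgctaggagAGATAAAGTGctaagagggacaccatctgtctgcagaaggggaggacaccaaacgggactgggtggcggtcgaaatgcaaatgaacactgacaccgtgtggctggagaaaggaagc
Mir23a, intergenic peak (chr8:86727150-86727349, plus strand): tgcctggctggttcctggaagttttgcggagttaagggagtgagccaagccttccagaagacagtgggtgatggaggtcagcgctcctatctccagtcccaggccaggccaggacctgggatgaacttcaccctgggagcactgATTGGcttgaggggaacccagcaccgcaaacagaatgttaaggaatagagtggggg

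The windows from the start site peaks of Msx2, Id3 and Hist1h3b had a GC content of 68.0%, 60.5% and 65.5%. Their ratios of observed over expected CpG were 0.96, 0.66 and 1.04. This ratio is the count of CG dinucleotides over the count that the base composition would give. It was lower in all 5 windows away from start sites, at 0.13 for the Smad6 window, 0.36 for the window in an intron of Zfpm1, 0.25 for the Cacna1a window, 0.53 for the Elf2 window and 0.19 for the Mir23a window. The Zfpm1 window held 2 matches to the GATA motif and 1 to the Isl1 motif, and the Smad6 window held matches to the TEAD, Nkx2-5, CTCF and NF-Y motifs.

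Most clusters held the smallest number of peaks that the rule allowed. There were 45 clusters of 5 peaks, 17 of 6, 9 of 7 and 2 of 9. Just outside the rule were 166 clusters of 4 peaks with 664 peaks, and 17970 peaks stood alone. The clusters spanned 21.8 to 63.2 kb (median 33.8 kb, quartiles 30.2 and 40.6 kb) and 2.60 Mb in all, which is 0.0978% of the assembly. Peaks covered 24.6% of the spans, from 16.1% to 38.4% of a cluster, and there were 1.09 to 2.29 peaks per 10 kb. The 335 gaps inside clusters ran from 99 to 9990 bp with a median of 6128 bp. Of these gaps 18 were over 9.5 kb, and of the 146 gaps that bounded the clusters 5 were within 500 bp above the limit of 10 kb. The border of such a cluster rested on that choice.

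**Figure D1:**
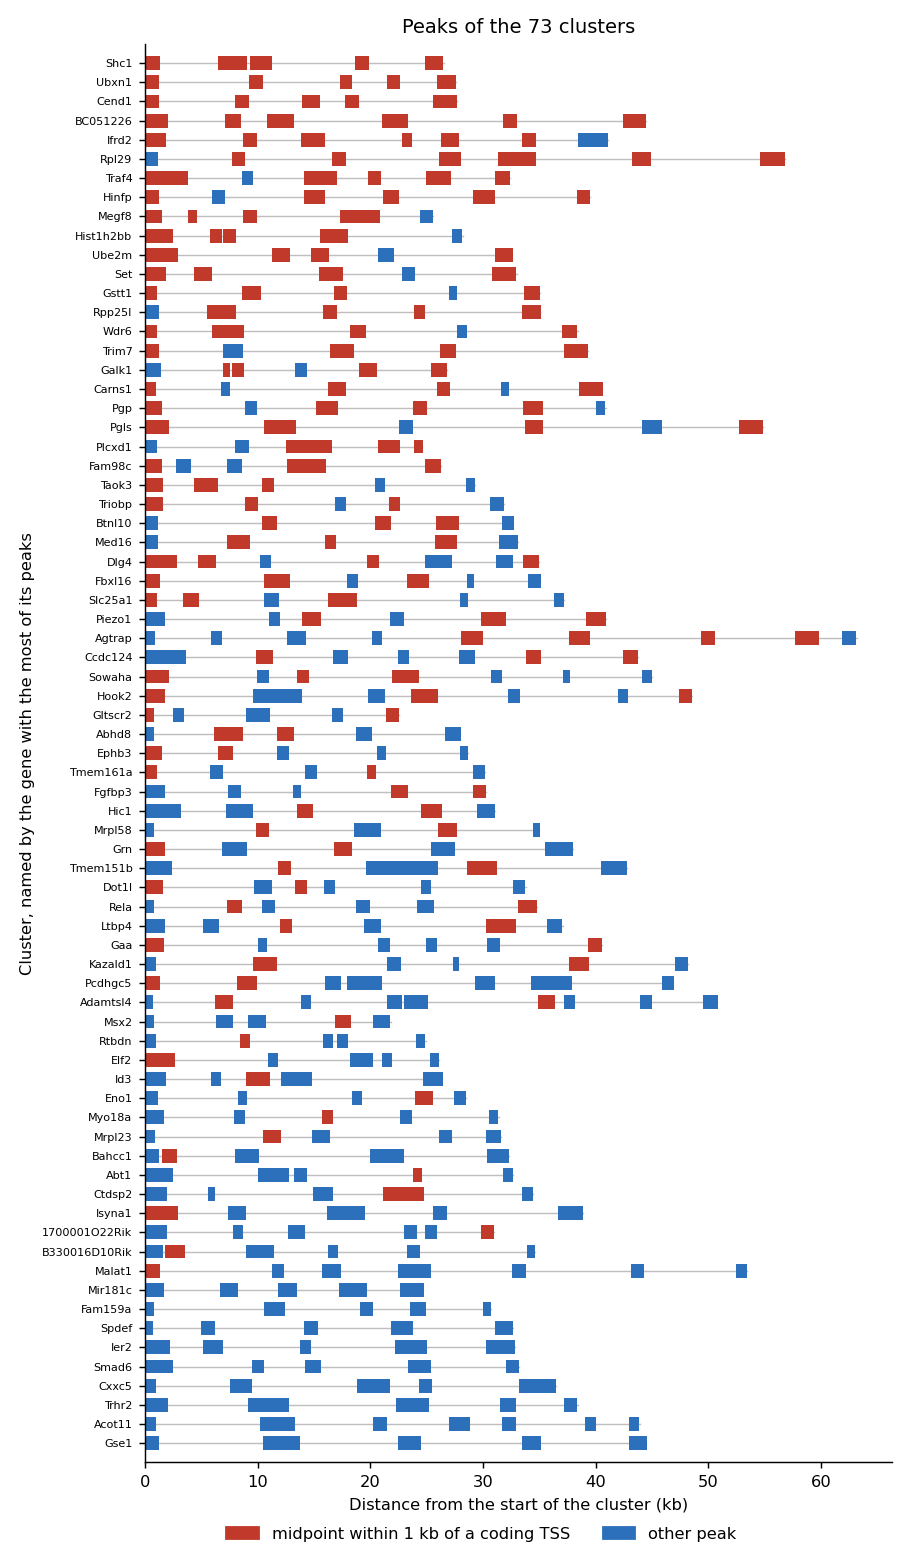
Map of all 73 clusters, each on a line named by the gene to which most of its peaks were assigned, with kb from the start of the cluster on the x axis and each peak drawn to scale. Peaks with a midpoint within 1 kb of a protein coding transcription start site (TSS) are red and other peaks blue; clusters are sorted from those with all peaks at coding TSSs (4 clusters) to those with none (9 clusters).

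Peaks were counted as at a coding TSS where a start of a protein coding transcript in GENCODE vM1, an annotation on the same assembly, was at most 1 kb from the midpoint. By this measure 181 of the 408 peaks, or 44.4% (95% Wilson interval 39.6 to 49.2%), were at coding TSSs, against 45.3% (44.7 to 45.9%) of the 25824 other peaks. Intervals in this text cover counting error over the peaks of this list, and peaks of a cluster share a place, so they are not a replicate error. The share differed widely among clusters, from 0 to 100% with quartiles of 20% and 66.7%. In 27 clusters more than 50% of the peaks lay at coding TSSs, in 14 clusters 1 peak did, and in 9 clusters none did. Thus an average share close to that of the rest of the list came with very different shares in single clusters. With so few peaks in a cluster the share varies widely by counting alone. Whether the spread went beyond that was not tested.

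The 4 clusters with the most genes were rows of promoters. By the gene assigned to each peak in the deposited list, a cluster held 1 to 6 genes (median 3), with 28 clusters of at least 4 genes and 36 of 2 or 3. The 4 clusters with 6 genes lay at Rassf1 to Ifrd2, Rpl29 to Parp3, Traf4 to Proca1 and BC051226 to B3galt4. The 10 clusters with 5 genes that followed were more mixed, with 40.0% to 100% of their peaks at coding TSSs. The cluster at chr9:107456100-107497156 had peaks at the starts of Rassf1, a tumour suppressor of the Ras association family, Tusc2, the hyaluronidase genes Hyal2 and Hyal1, Nat6 and Ifrd2, with 6 of its 7 peaks at coding TSSs. The cluster at chr17:34045049-34089542 in the extended class II region of the major histocompatibility complex had all 6 peaks at coding TSSs. They were assigned to BC051226, Zbtb22, Tapbp, which loads peptides on class I molecules, Rgl2, the prefoldin subunit gene Pfdn6 and B3galt4. BC051226 has a noncoding accession, and the coding start under its peak was that of Daxx. The other clusters with all peaks at coding TSSs were 3 clusters of 5 peaks, at Flad1 to Pbxip1 with the adaptor gene Shc1 and the Wnt cofactor gene Pygo2, at Ubxn1 to Ganab, and at Cend1 to Pnpla2 with the ribosomal gene Rplp2.

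The longest clusters mixed promoters and distal peaks. The longest was 63.2 kb at chr4:147475989-147539150 with 9 peaks, of which 4 were at coding TSSs, with 2 at the checkpoint and repair gene Mad2l2 and 1 each at the F-box genes Fbxo6 and Fbxo2. Its peaks assigned to Agtrap lay 14264 and 20140 bp upstream of that gene. The cluster at Rpl29 and Parp3 spanned 56.8 kb with 6 of 7 peaks at coding TSSs, and that of Tmem221 to Colgalt1, with the fatty acid transporter gene Slc27a1, spanned 54.9 kb with 4 of 6. The cluster of Malat1, an abundant nuclear noncoding RNA, spanned 53.4 kb with 7 peaks. It had peaks 981, 11528 and 20755 bp upstream of Malat1, and peaks 1609 and 8953 bp downstream of the start of Mascrna, the small RNA cut from the Malat1 transcript.

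The other cluster of 9 peaks lay at chr3:95456003-95506832 and held 2 genes, Mcl1, which encodes a protein of the Bcl2 family that protects cells from apoptosis, and Adamtsl4, which encodes a matrix protein. Mcl1 had peaks 6293 bp upstream, at 352 bp and 7643 bp downstream, with widths of 696, 1657 and 862 bp. Adamtsl4 had 6 peaks from 14326 bp upstream to 13659 bp downstream, the widest of 2197 bp at 11784 bp. Of the 9 peaks 7 were intergenic and 2 at coding TSSs, so this cluster was made mostly of distal peaks although its genes had peaks at their starts.

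In 9 clusters all peaks were assigned to 1 gene, which is 12.3% of clusters (6.62 to 21.8%), and these held 46 peaks. The genes were Msx2, Elf2, Smad6, Ier2, Gse1, Myo18a, Bahcc1, Cxxc5 and 1700001O22Rik. Msx2, a homeobox factor that responds to BMP signals and acts in the outflow tract and skull, was the 1 gene of the cardiac list with peaks in a cluster, and its cluster was the most compact of all 73. This cluster lay at chr13:53550486-53572272, with 5 peaks in 21.8 kb. Its peaks lay 3345 bp upstream, at 132 bp and 7708, 10601 and 17275 bp downstream of the start, with widths of 1555, 1410, 1610, 1523 and 779 bp. The peak at the start had a GC content of 67.3% in its central 300 bp, the upstream peak was higher at 73.3%, and the 3 downstream peaks were lower at 46.3%, 56.0% and 49.3%.

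Smad6, an inhibitor of BMP signalling, had the cluster farthest from its gene. Its 5 peaks, at chr9:63765745-63798900, lay 71524, 79742, 89199, 94096 and 102868 bp downstream of the Smad6 start and were intergenic in GENCODE. Widths were 1116, 2043, 1429, 1123 and 2508 bp. Their CpG ratios were low in all 5, between 0.07 and 0.35, and the peaks matched the motifs of Isl1, CTCF, TEAD, Nkx2-5, NF-Y, GATA, MEF2 and YY1 in 1 or 2 of the 5 windows each.

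Id3, a BMP target that blocks basic helix-loop-helix factors, was the other signalling gene in a cluster. At chr4:135690168-135716573 Id3 had peaks 8625 and 3264 bp upstream, at 435 bp and 3846 bp downstream, and 1 more peak was assigned to the cell cycle factor gene E2f2, 12488 bp upstream of it. These peaks had widths of 1891, 850, 2121, 2759 and 1744 bp. The widest, downstream of Id3, was intergenic and wider than the peak at the start.

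The other clusters with 1 gene were of both kinds of position. Elf2, an ETS factor gene, had a peak of 2622 bp at its start (341 bp upstream) and 4 intergenic peaks 10377, 18208, 20521 and 24716 bp upstream. Bahcc1 had peaks 1654 and 130 bp upstream and 6746, 19177 and 29049 bp downstream, the last 3 in introns with widths of 2083, 2998 and 2013 bp. Myo18a, which encodes an unconventional myosin, had 1 peak 13 bp from a start and 4 peaks 6914 to 14720 bp from a start of the gene in either direction. The uncharacterised gene 1700001O22Rik had 6 peaks between 111 and 29527 bp downstream of its start. In Elf2, Bahcc1 and Myo18a alike the peak at the start was therefore 1 among several, and the distal peaks of Bahcc1 were the wider ones.

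The 9 clusters without a peak at a coding TSS held 47 peaks, and they lay at Smad6, Ier2, Gse1, Cxxc5, Acot11 and Ssbp3, Coa7 and Fam159a, Pacsin1 and Spdef, Zfpm1 and Trhr2, and Mir181c and Mir23a. The cluster between Acot11 and Ssbp3, at chr4:106500014-106543902, had 7 intergenic peaks, 4 of them 22902 to 50346 bp upstream of Acot11 and 3 of them 40623 to 51730 bp upstream of Ssbp3, which encodes a partner of LIM domain binding proteins. The 5 peaks of Cxxc5, a BMP-responsive zinc finger gene, lay 24695 to 59019 bp downstream of its start. The cluster of Coa7 and Fam159a, at chr4:108011662-108042334, had 5 peaks at 11308 to 24969 bp. That of Pacsin1 and Spdef, at chr17:27839424-27872109, had 5 peaks, 1 of them 5399 bp upstream of Spdef, an epithelial ETS factor gene, and no peak at the start of Spdef.

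The cluster assigned to Zfpm1 and Trhr2, at chr8:124835906-124874283, shows a limit of naming peaks by the nearest start. The list assigned 1 of its 5 peaks to Zfpm1, which encodes Friend of GATA 1, a cofactor of GATA factors needed for heart valve formation, and 4 to Trhr2, a receptor gene for thyrotropin releasing hormone. Of those 4 the peaks 37765 and 24993 bp from the Trhr2 start lay inside the body of Zfpm1, so 3 of the 5 peaks were in Zfpm1, 2 of them in introns and 1 in a coding exon. These 3 peaks were wide, at 2069, 3608 and 2939 bp, and the peak of 3608 bp holds the GATA and Isl1 matches printed above. Over all clusters 111 of the 227 peaks away from coding TSSs lay in the body of a coding gene, and for 34 of these, or 30.6% (22.8 to 39.7%), that gene was not the assigned one. Such peaks occurred in 26 clusters.

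Ier2, an immediate early gene, was another case. Its cluster at chr8:87157109-87189939 had peaks 1917 bp upstream and 6006, 15389, 23628 and 28534 bp downstream, of 2541, 2831, 990, 1791 and 2218 bp, and the farthest 2 lay in Cacna1a, a calcium channel gene. No peak lay within 500 bp of the start of Ier2, at chr8:87186751, which is CpG-rich. The near edge of the peak of 2541 bp was at chr8:87187399, not far beyond that distance. Peaks were called in both replicates before a region entered the list, so an absent peak is no measurement of closed chromatin.

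Gse1 had 5 peaks at chr8:122999017-123043543, at 1668, 13139 and 17000 bp upstream and 9717 and 20584 bp downstream of starts of the gene. All were classed as intron, but those 1668 and 13139 bp upstream lay outside the body of Gse1. The widest, of 3269 bp, had its midpoint 1668 bp from the assigned start and so was not counted at a coding TSS, although its edge reached within 500 bp of the start used for the promoter counts below. On this part of chromosome 8 GENCODE also holds Gm20388, a gene model of 4.43 Mb over many genes. Only because of it were 5 member peaks classed as in a gene, among them those 1668 and 13139 bp upstream of Gse1.

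The cluster upstream of Mir23a and Mir181c, at chr8:86703555-86728301, had 5 intergenic peaks and no coding start inside its span. Mir181c had peaks 1527, 8168 and 13333 bp upstream and Mir23a had peaks 5168 and 10401 bp upstream, so the cluster lay between both microRNA genes and upstream of each. Widths were 1627 to 2411 bp, so each of the 5 peaks was wider than the median of all members, 1388 bp. With 38.2% of its span under peaks it was covered almost as densely as any cluster, the highest share being 38.4% at Traf4.

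The 5 most compact clusters were those of Msx2, Galk1 (2.24 peaks per 10 kb), Gltscr2 (2.22), Plcxd1 (2.03) and Mir181c (2.02). In that of Galk1, at chr11:115865790-115892559, a galactokinase gene, 2 peaks at the start stood 129 bp apart, with widths of 600 and 1109 bp. Only 8 of the 335 inner gaps were under 500 bp, and such a pair may be counted as 1 peak by another caller. With peaks under 500 bp apart merged beforehand, 68 clusters and 380 peaks remained at 5 peaks or more.

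Few genes of the chosen lists had peaks in clusters. Over all genes in the list, 226 of 15351, or 1.47%, had a peak in a cluster. Of the cardiac regulators 1 of 24 with a peak did (Msx2), and of the signalling genes 2 of 29 (Id3 and Smad6). None of the 20 genes of the SWI/SNF remodelling complexes, the 14 genes of cardiac contraction, the 15 pluripotency, 19 neural, 15 blood and endothelial, 6 liver, 6 skeletal muscle or 10 smooth muscle genes did, nor any of 21 Hox genes. With 1.47% of all genes in clusters and at most 29 genes in a list, a list at the background share and a list with none cannot be told apart here. The study chose several of these genes on related chromatin data.

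Histone and protocadherin genes, which lie in tandem arrays, were in clusters more often. Of 32 replication-dependent histone genes with a peak 7 had one in a cluster, which is 21.9% (11 to 38.8%) beside 1.47% of all genes. They lay in 2 clusters, at chr13:23836803-23864967 with Hist1h2bb, Hist1h2ab, Hist1h3b, Hist1h4a and Hist1h1a, and on chromosome 11 with Hist3h2ba and Hist3h2a, so neighbouring genes of a family entered together. The chromosome 13 cluster also had the highest share of repeated 32-base words in the genome, 25.3% of its peak sequence beside 2.73% over all member peaks. Reads of near-identical histone genes are uncertain in placement, and the part of this in the cluster was not tested. Of 14 protocadherin genes 3 had peaks in 1 cluster on chromosome 18, Pcdhgc3, Pcdhgc4 and Pcdhgc5, the last variable exons of the gamma array. Other families with tandem members were not above the background. They had 1 of 348 Zfp genes (Zfp605, 0.287%), none of 73 olfactory and vomeronasal receptor genes (up to 5.00%) and none of 17 keratin genes (up to 18.4%). Higher shares also occurred outside tandem arrays. Of 69 cytosolic ribosomal protein genes with a peak 4 had one in a cluster, 5.80% (2.28 to 14.0%). The interval of the signalling genes given above also lay over 1.47%.

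The spans of the clusters were dense in genes. They held 213 of the 5′-most coding TSSs of GENCODE genes, 8.20 per 100 kb against 0.842 over all chromosomes. Of the 213, 189 had a peak within 500 bp, or 88.7% (83.8 to 92.3%), against 53.2% (52.5 to 53.9%) of the 22146 TSSs elsewhere. A cluster needs peaks, and many peaks of the list lie at coding TSSs. The density of TSSs and the excess of TSSs under peaks are therefore in part set by the rule. For CpG-rich TSSs, with a GC content from 50% upward and a CpG ratio from 0.6 upward over that 1 kb window, the shares were close, 91.4% (85.6 to 95%) inside and 89.4% (88.7 to 89.9%) outside. For CpG-poor TSSs they were 83.6% (73.4 to 90.3%) of 73 inside and 24.4% (23.6 to 25.1%) of 12321 outside.

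TSSs within 50 kb of a cluster but not in one gave a nearer comparison. Of these 225 TSSs 53.8% (47.3 to 60.2%) were under a peak, with 80.2% (71.4 to 86.8%) of CpG-rich and 32.3% (24.7 to 40.9%) of CpG-poor ones. CpG-poor TSSs next to clusters were thus closer to those in the rest of the genome than to those in clusters. Beside the borders of a cluster at least 10 kb had no peak by the rule, which lowers these shares.

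**Figure D2:**
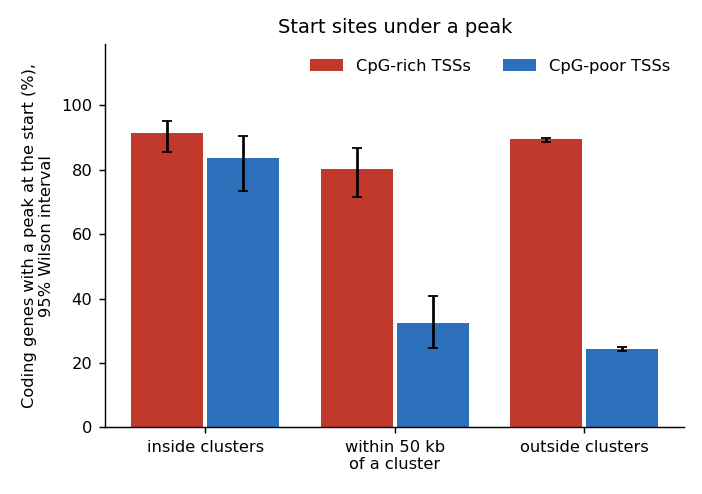
Share of GENCODE coding genes with a peak within 500 bp of the 5′-most coding TSS, in percent with 95% Wilson intervals, for CpG-rich (red) and CpG-poor (blue) TSSs inside clusters, within 50 kb of a cluster, and outside clusters (all TSSs outside, the nearer ones included). CpG-rich TSSs range from 80.2% to 91.4%, while CpG-poor ones are at 83.6% inside, 32.3% nearby and 24.4% outside.

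Inside clusters 24 genes in 19 clusters had no peak at the 5′-most TSS. For 5 of these, H3f3b, Dlg4, Proca1, Rnaseh2a and Nat6, another coding TSS of the gene was under a peak. Among the other 19 were CpG-rich starts such as those of Hic1, a tumour suppressor gene silenced by methylation in cancers, the linker histone gene Hist1h1a, the antioxidant gene Prdx2, Ssbp4, Tmem151b and Ier2. The CpG-poor starts among these 19 were those of the photoreceptor genes Nxnl1 and Rtbdn, of Lrrc25, Fam129c and Spdef, genes known from blood or epithelium, and of Gm10277, 9930021D14Rik and the histone gene Hist1h4b. The Hist1h4b start had a CpG ratio of 0.78 and so failed only on GC content. At Rtbdn a peak of 963 bp had its midpoint 1023 bp from the start. The peak of 3204 bp assigned to Hic1 had its midpoint 1825 bp from the deposited start but 3191 bp from the nearest coding TSS in GENCODE. The counts here used the GENCODE start.

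Peaks in clusters were wider than others in both positions. At coding TSSs the median width was 1557 bp (95% interval 1434 to 1626 bp, n = 181) against 1328 bp (1318 to 1339 bp) for 11706 other peaks at coding TSSs. Away from coding TSSs it was 1213 bp (1145 to 1332 bp, n = 227) against 905 bp (898 to 911 bp) for 14118 other peaks. For peaks away from coding TSSs the medians rose with the number of peaks in the cluster, from 867 bp for peaks alone through 962, 1034 and 1074 bp in clusters of 2, 3 and 4 to 1213 bp in clusters of at least 5. At coding TSSs they were 1321, 1327, 1404, 1394 and 1557 bp, with no rise from 3 to 4 peaks. Over both positions the median was 1336 bp in clusters of at least 6 peaks, below the 1388 bp of all members. The rule measured gaps between peak edges, which favours wide peaks to some extent. With neighbours joined by the distance between midpoints, 212 peaks were left with a median width of 1258 bp over both positions, against 1388 bp by the rule used. Peaks outside the clusters of the rule used had 1077 bp. These medians mix positions in unlike shares, with 48.1% at coding TSSs for the 212 peaks and 45.3% for the peaks outside. How much of the width came from the rule was not tested.

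**Figure D3:**
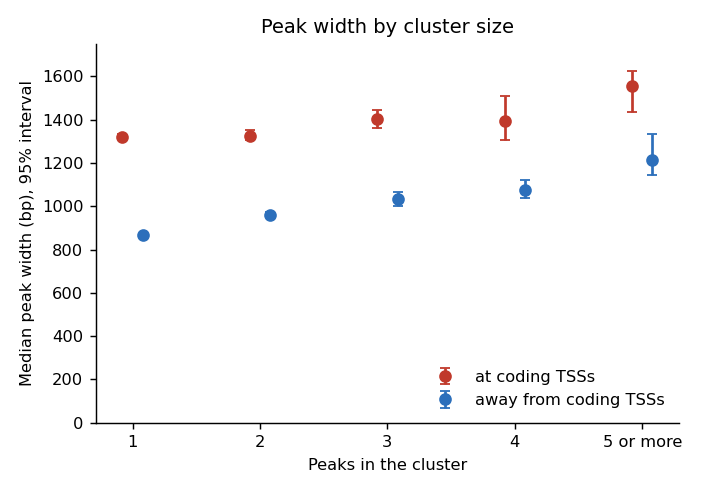
Median peak width in bp with its 95% interval against the number of peaks in the cluster (1 means a peak that stands alone), for peaks at coding TSSs (red) and away from them (blue). Peaks away from coding TSSs go from 867 bp alone to 1213 bp in clusters of 5 or more, and peaks at coding TSSs from 1321 to 1557 bp.

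The greater width of distal members was present at both distances from coding TSSs. Among peaks 1 to 10 kb from the nearest coding TSS, members had a median width of 1194 bp (1123 to 1377 bp, n = 128) and other peaks 991 bp (979 to 1007 bp). Beyond 10 kb the medians were 1223 bp (1116 to 1391 bp, n = 99) and 877 bp (870 to 883 bp). Other peaks were wider near a TSS than far from it, and members had about the same width at both distances. The widest member was 6348 bp at Slc35b2, next to Nfkbie, an inhibitor of NF-kB, and Hsp90ab1, a heat shock protein gene. The position rests on the midpoint, so a wide peak over a start can count as away from it. This peak covered the Slc35b2 start, with its midpoint 2452 bp from the nearest coding TSS. Peaks of 4335 and 3599 bp covered the starts of Junb and A230052G05Rik in the same way. The part of this in the widths was not tested. The list has no height, and the width of a called peak also depends on depth and caller.

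By the deposited distances members lay near genes more often than other peaks. Of the 408 members 33.3% (28.9 to 38%) lay 1 to 10 kb from the assigned start, against 13.5% (13.0 to 13.9%) of other peaks, and 1.96% (0.997 to 3.82%) lay beyond 50 kb, against 17.2% (16.7 to 17.7%). Members within 1 kb made up 43.6%, against 44.9%. Since a cluster spans at least 21.8 kb and most held a gene, distances of 1 to 10 kb are in part given by the rule. Members were also more often in coding exons, 4.66% (3.00 to 7.16%) against 1.90% (1.74 to 2.08%), and in untranslated regions, 2.94% (1.69 to 5.07%) against 0.995% (0.881 to 1.12%), while introns held 20.1% against 22.2%.

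Base composition set members apart in opposite directions at and away from starts. In the central 300 bp, members at coding TSSs had a median GC content of 63.3% (62.0 to 65.7%) and a CpG ratio of 0.75 (0.72 to 0.81), below the 66.7% (66.3 to 66.7%) and 0.81 (0.81 to 0.82) of other peaks at coding TSSs. Members away from coding TSSs had 57.0% (55.7 to 58.3%) and 0.32 (0.27 to 0.38), above the 54.0% (54.0 to 54.3%) and 0.24 (0.24 to 0.24) of other such peaks. Of these 4 pairs of intervals only those of the CpG ratio at coding TSSs overlapped. Split by distance, the 99 members beyond 10 kb of a coding TSS stayed apart from other peaks, at 56.3% (55.0 to 57.7%) against 53.7% (53.3 to 53.7%) and a ratio of 0.28 (0.25 to 0.33) against 0.23 (0.22 to 0.23). At 1 to 10 kb, where 128 members lay, the intervals met, at 58.0% (55.7 to 59.3%) against 55.7% (55.7 to 56.0%) and 0.37 (0.29 to 0.45) against 0.28 (0.27 to 0.29). Leaving out the 3 distal members within 1 kb of a deposited start that is not a GENCODE coding TSS, and the 495 other such peaks, the distal CpG ratios were 0.31 and 0.23.

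Away from coding TSSs, motifs of cardiac factors were not more frequent in members than in other peaks. The motifs searched on both strands of the central 300 bp were AGATAA for GATA factors, GGAATG for TEAD factors, CTANNNNTA for MEF2, TNAAGTG for Nkx2-5, CTAATG for Isl1 and other LIM-homeodomain factors, CAGCTG for the E-box of basic helix-loop-helix factors, CCANNAGGG for CTCF, GGGCGG for SP and KLF factors, GCGCATGCG for NRF1, CCGGAAG for ETS factors, CCAAT for NF-Y, AAGATGGC for YY1, TGACGTCA for CREB, CACGTG for USF and MYC, TCTCGCGA for ZBTB33 and TGANTCA for AP-1. Matches to different motifs may overlap, and a match describes letters and not binding. Away from coding TSSs the GATA motif was in 8.37% of members (5.42 to 12.7%, 19 of 227) and in 14.8% of other peaks (14.2 to 15.4%). The TEAD motif was in 20.7% against 22.5%, MEF2 in 16.7% against 18.3%, Nkx2-5 in 11.5% against 12.7% and Isl1 in 8.81% against 9.73%, each within the interval of the members. The 19 peaks with a GATA match lay in 15 clusters.

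The motifs of SP and KLF factors and of NRF1 were more frequent in distal members. The SP and KLF motif was in 32.6% of members away from coding TSSs (26.8 to 38.9%) against 21.2% of other such peaks (20.6 to 21.9%), and these 74 peaks lay in 44 clusters. The NRF1 motif was in 5 members, 2.20% (0.944 to 5.05%), against 0.191% (0.131 to 0.278%), and the 5 lay in 4 clusters, 2 of them in Ccdc40 near Gaa. Another of the 5 lay 57 bp from the deposited start of B330016D10Rik. Without peaks within 1 kb of a deposited start, NRF1 was in 4 of 224 members, 1.79% (0.697 to 4.50%), against 0.184% (0.124 to 0.271%). The SP and KLF motif was then in 31.7% (26.0 to 38.1%) against 20.2% (19.5 to 20.8%). The other motifs of general promoter factors had intervals that overlapped, with NF-Y in 27.3% against 30.2%, USF and MYC in 3.52% against 5.14%, ETS in 3.08% against 3.58%, CREB in 0.441% against 0.680% and YY1 in 2.20% against 1.47%, while ZBTB33 was in 0 of 227 members (up to 1.66%) and 0.113% of others. The part of base composition in these shares was not tested. At coding TSSs the SP and KLF motif was in 65.7% of members and 66.4% of other peaks. The AP-1 motif was in 6.08% (3.43 to 10.6%) against 3.00% (2.70 to 3.32%), and of the 16 motifs it was the only one at coding TSSs whose intervals did not overlap. With 32 comparisons, 4 pairs of intervals stayed apart, for GATA, SP and KLF, and NRF1 away from coding TSSs and for AP-1 at them. In the central 200 bp the AP-1 intervals overlapped, at 4.42% (2.26 to 8.48%) against 2.09% (1.85 to 2.37%), and the GATA intervals met, at 6.17% (3.71 to 10.1%) against 10.6% (10.1 to 11.1%). The intervals of SP and KLF and of NRF1 stayed apart there, at 27.3% (21.9 to 33.5%) against 16.3% (15.7 to 16.9%) and at 2.20% (0.944 to 5.05%) against 0.127% (0.0807 to 0.201%).

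**Figure D4:**
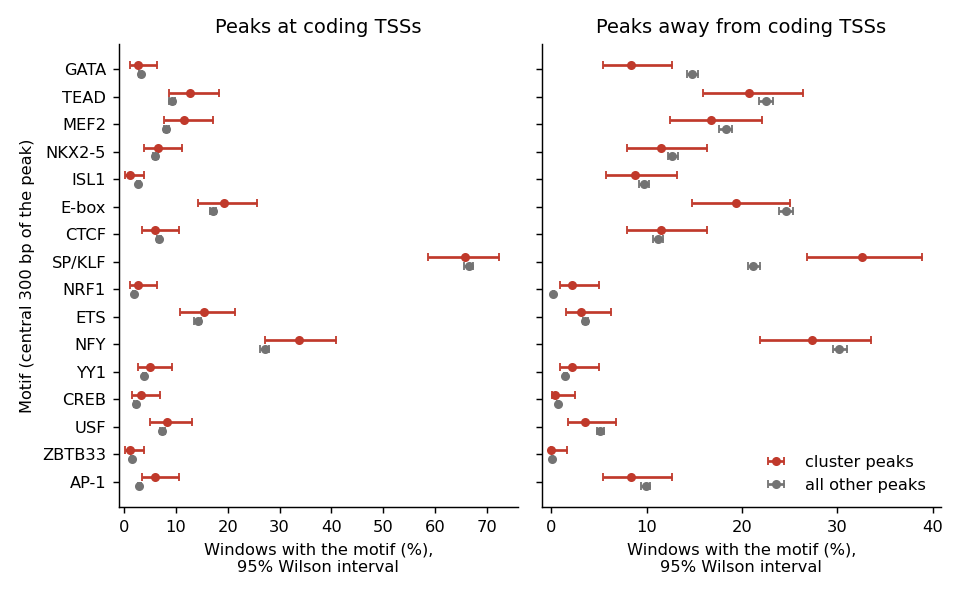
Share of central 300 bp windows with each of 16 motifs, in percent with 95% Wilson intervals, for cluster peaks (red) and all other peaks (grey), at coding TSSs (left) and away from them (right). Away from coding TSSs the GATA motif is at 8.37% against 14.8% and the SP/KLF motif at 32.6% against 21.2%; in the central 200 bp the GATA intervals met at 10.1%.

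Clusters were spread unevenly over chromosomes. Chromosomes 8 and 11 had 12 clusters each, chromosomes 4 and 7 had 7 each, and chromosomes 1, 6, 12, 14, X and Y had none, although chromosome 1 had 1642 peaks. Members were 4.79% (3.78 to 6.05%) of the peaks of chromosome 8, 4.28% (3.10 to 5.90%) on chromosome 19 and 3.33% (2.63 to 4.21%) on chromosome 11. Over the 20 chromosomes other than Y, clusters per 100 Mb were described by a Pearson r of 0.69 and a Spearman rho of 0.72 with coding genes per Mb, and by 0.74 and 0.73 with peaks per Mb. Chromosome 8 stood above chromosomes of like gene density, with 9.11 clusters per 100 Mb at 8.21 genes per Mb, beside 3.08 on chromosome 10 at 8.04, 1.31 on chromosome 5 at 8.58 and 4.50 on chromosome 4 at 8.71.

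**Figure D5:**
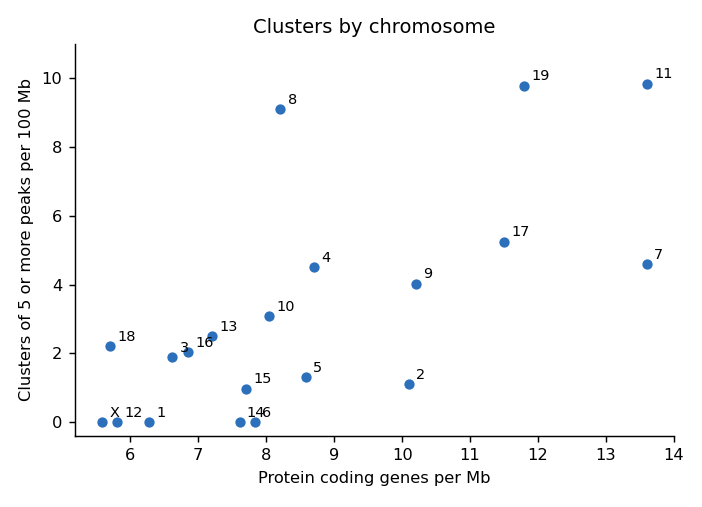
Clusters of 5 or more peaks per 100 Mb against protein coding genes per Mb, one point for each of 20 chromosomes (Y left out). Chromosomes 8, 19 and 11 lie highest at 9.11, 9.78 and 9.85, and 5 chromosomes (1, 6, 12, 14 and X) lie at 0.

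The clusters of chromosome 8 lay in 3 stretches. Joined where at most 2 Mb separated them, 5 clusters with 28 peaks, from Tmem161a to Pgls, lay within 1.46 Mb, 4 with 22 peaks, from Mir181c to Hook2, within 0.834 Mb, and 3 with 16 peaks, from Gse1 to Piezo1, within 2.10 Mb. Chromosome 11 differed, with its 12 clusters in 9 stretches of 1 or 2. Over the genome 41 of the 73 clusters had another within 2 Mb. The stretch from Mir181c to Hook2 held Ier2 and Junb, both immediate early genes, and the peak assigned to Junb was 4335 bp wide at 1571 bp from its start.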

How the data were processed

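ATAC-seq was measured in 2 replicates of 1 group, both represented by 1 deposited peak list. Per the study's methods the authors mapped reads to mm9 with Bowtie2, filtered them with SAMtools, removed duplicates with Picard 1.136, called peaks per replicate with MACS using a fixed shift, dropped blacklisted regions, and kept peaks overlapping the other replicate by at least 1 bp with bedtools 2.15. Versions come from the submitters' processing notes. A called width depends on this calling and on depth, which is unknown.

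The deposited columns give peak coordinates, the signed distance in bp from an assigned gene start (positive is downstream), an accession and a symbol. The 26429 lines held 26232 distinct intervals, each counted 1 time. For 223 of 370 member peaks with a gene symbol in GENCODE (60.3%) the distance matched an annotated start within 1 bp.

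Joining, shares, order-statistic intervals of medians and motif counts used Python 3.11.15, numpy 2.4.6, pandas 2.3.3 and scipy 1.17.1, tested on simulated data. Sequence and genes came from NCBIM37 (mm9) with GENCODE vM1, and gene synonyms from RefSeq. Repeated words were 32-base words sampled every 16 bases. No test was made, since 1 list gives no replicate values.

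The members, the 11 gene lists, 8 name patterns and 16 motifs were chosen with earlier results of these data known. Clusters named individually were those with at least 8 peaks, the 5 longest, the 5 with the most peaks per length, those with 1 gene, those without a peak at a coding TSS, those with a gene of the cardiac, signalling, SWI/SNF or Hox lists, and the 5 with the most genes; others are named in passing. Alternatives were other joining distances, minimum peak numbers, widths, distances between midpoints, start definitions and windows. Some gene results are not reported here.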

Additional observations from a re-analysis of the deposited data

How the results depend on the processing

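The number of clusters depended on the rule. It was 3 with a joining distance of 5 kb, 668 with 25 kb and 157 with the alternative between 10 and 25 kb, 239 with at least 4 peaks, 28 with at least 6, and 39 with midpoint distances, against 73; the member peaks were then 16, 4717, 938, 1072, 183 and 212. Counting every line gave 86 clusters with 478 peaks, and merging peaks under 500 bp apart, chosen after seeing the data, gave 68 with 380. Peaks at coding TSSs were 56.2% with 5 kb and 39.5% for midpoints within 500 bp. Peaks beyond 10 kb of the assigned start were 23.0%, 2 of 16 peaks or between 12 and 13% with 5 kb and 30.6% with 25 kb. The median width was 1602 bp with 5 kb, 1232 bp with 25 kb, 1255 bp with at least 4 peaks and 1258 bp with midpoint distances. Over whole peaks the median GC content was 55.6% and the CpG ratio 0.47, and the ratio was 0.64 with 5 kb. Clusters with 1 gene were 0% with 5 kb, 23.8% with at least 4 peaks and 3.57% with at least 6. Coding TSSs under a peak were 66.7% with 5 kb and 80.2% with 25 kb. The cause was not tested, and with 5 kb only 3 clusters remained. The other 44 of 72 combinations of measure and alternative moved by less than the counting interval or, for counts, by under 1.5 times. Of 32 motif shares 29 were lower in 200 bp windows, which are shorter.

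No paired analysis was possible because the list has no column for a replicate and the samples form 1 group, and leaving out a replicate was not run for the same reason. Depth limits which peaks were called, and it is unknown.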

Other observations

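Some clusters held pairs of genes with starts side by side. There were 11 pairs of coding genes with starts within 1 kb of each other on opposite strands and transcribed apart, in 10 clusters. A peak at a coding TSS lay over starts of 2 or more genes in 22 of 181 members, or 12.2% (95% Wilson interval 8.17 to 17.7%), and in 9.47% (8.95 to 10.0%) of other peaks at coding TSSs, so the intervals overlapped.

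Peaks assigned to a noncoding accession were fewer in clusters, at 20 of 408 or 4.90% (3.20 to 7.45%), than among other peaks, at 9.86% (9.51 to 10.2%). Sequence that occurs more than 1 time in the assembly, counted in 32-base words, was 2.73% of member peaks and 4.91% of other peaks. Of peaks away from coding TSSs, 39.2% of members (33.1 to 45.7%) and 44.4% of others (43.6 to 45.2%) lay upstream of the assigned start, with intervals that overlapped.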
